A study of Mus musculus with 12 samples.

Results

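A set of 10 microglia and fractalkine genes was read from the transcriptome of whole mouse brains under chronic unpredicted mild stress (CUMS) with or without krill oil. The 10 genes, taken by symbol from the 55385 genes of the table, were C1qa, C1qb, C1qc, Csf1r, Cx3cr1, Cx3cl1, P2ry12, Tmem119, Trem2 and Tyrobp. Total RNA came from 12 brains of male wild type (WT) C57/BL6J mice, with 3 mice in each of 4 groups and 1 poly(A) library per mouse. The C_W mice were unstressed and were given water in place of oil, the C_O mice were unstressed and were given krill oil, the MS_W mice underwent CUMS with water, and the MS_O mice underwent CUMS with krill oil. By the methods of the study, krill oil was given into the stomach at 200 mg/kg per day for 5 weeks, CUMS lasted 4 weeks, and the mice were 8 weeks old when purchased. Libraries are named by group and mouse number, such as C_O15.

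Microglia are the resident macrophages of the brain parenchyma. They survive on signals through the receptor CSF1R, sense nucleotides released by other cells through P2RY12, and make most of the complement C1q of the brain. Fractalkine, encoded by Cx3cl1, is a membrane-bound chemokine made mainly by neurons that can be cut from the cell surface, and its receptor CX3CR1 is carried in the brain mainly by microglia. TREM2, a surface receptor for lipids and lipoproteins, signals through the adaptor TYROBP.

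Fractalkine and its receptor had their highest values in the unstressed mice given krill oil, but in different mice. Cx3cl1 reached 233.5 FPKM (fragments per kilobase of exon scaled to the mapped fragments of a library) in C_O15, and Cx3cr1 reached 10.17 FPKM in C_O30 and 4.69 FPKM in C_O72. The other 8 genes, called the core genes here, did not separate any pair of groups. This division into 8 core genes and the fractalkine pair was made after the values were seen. Library MS_W95 had the lowest value of all 12 libraries for each of the 8 core genes and for Cx3cr1.

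All 10 genes passed the filter on low values (a 12-library mean FPKM of 0.1 or more) and were tested among 21393 genes. A single limma fit of the 4 groups to log2(FPKM + 1) gave each difference between groups as a log2FC with its standard error (SE), with p adjusted after Benjamini and Hochberg across the whole set. A log2FC on this scale understates the change of genes at low FPKM. With 3 mice against 3, an exact two-sided permutation test of a single gene could not go below p = 0.1. None of the 10 genes passed an adjusted p of 0.05 by limma in any comparison, where 0.00467% of the tested genes passed in MS_W against C_W, 0.00467% in MS_O against C_O, 0.00467% in MS_O against MS_W, 0% in C_O against C_W and 0% for the interaction of CUMS and krill oil. At an unadjusted p under 0.05, the count of the 10 genes was 2 in MS_O against C_O, 2 in C_O against C_W, and 0 in the other comparisons. When only the groups compared were fitted, these counts were 0 in each pairwise comparison, and edgeR and DESeq2 each gave 2 in MS_O against C_O, 2 in C_O against C_W and 2 for the interaction. By the limma fit of the 4 groups, the share of all tested genes at that level was 8.88% in MS_O against C_O and 3.55% in C_O against C_W. It was 10.5% in MS_W against C_W, 6.09% in MS_O against MS_W and 7.23% for the interaction. In MS_O against C_O and in C_O against C_W, which share the C_O mice, the 2 genes were Cx3cl1 and Cx3cr1. On the estimated counts of the table, edgeR's quasi-likelihood test called 0 of the 10 genes in all 5 comparisons, and DESeq2 called 1, Cx3cl1 in MS_O against C_O. In that comparison DESeq2 called 168 of all 22169 genes it tested, and edgeR called 1.

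A whole brain should hold cortex, and the 7 cortex markers, among them Slc17a7 and Tbr1, had a summed FPKM of 134.4 to 389.8 in 10 libraries. The sum was 35.3 in C_O72 and 48.1 in MS_W95. Among the 10 libraries, MS_W31 and MS_W75 had 142.6 and 134.4 FPKM, against 337.9 to 389.8 FPKM in the C_W mice. The MS_O mice had 230.6 to 272.2 FPKM, C_O15 286.5 FPKM and C_O30 387.4 FPKM. MS_W and C_W thus differed in cortex markers also without MS_W95, and the part of this in other values was not tested. The 8 hindbrain markers, among them Slc6a5 and Hoxb3, summed to 67.3 FPKM in C_O72, 24.0 FPKM in MS_W95 and at most 0.0976 FPKM elsewhere. The oligodendrocyte markers summed to 1184 FPKM in C_O72 and 624.1 FPKM in MS_W95 against 234.9 to 473.7 FPKM in the others, and the blood markers to 412.0 FPKM in MS_W95 against at most 239.8 FPKM. The blood marker sum was 31.3 FPKM in MS_W31 and 12.7 FPKM in MS_W75, against 158.8 to 213.0 FPKM in the C_W mice. C_O72 and MS_W95 therefore stood apart from their tissue label, and the fractalkine pair and the core genes are also given without them. The summed estimated counts ranged from 50912906 to 75678721 per library. In a whole tissue, fewer cells of a type and less RNA per cell cannot be told apart.

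**Figure D1:**
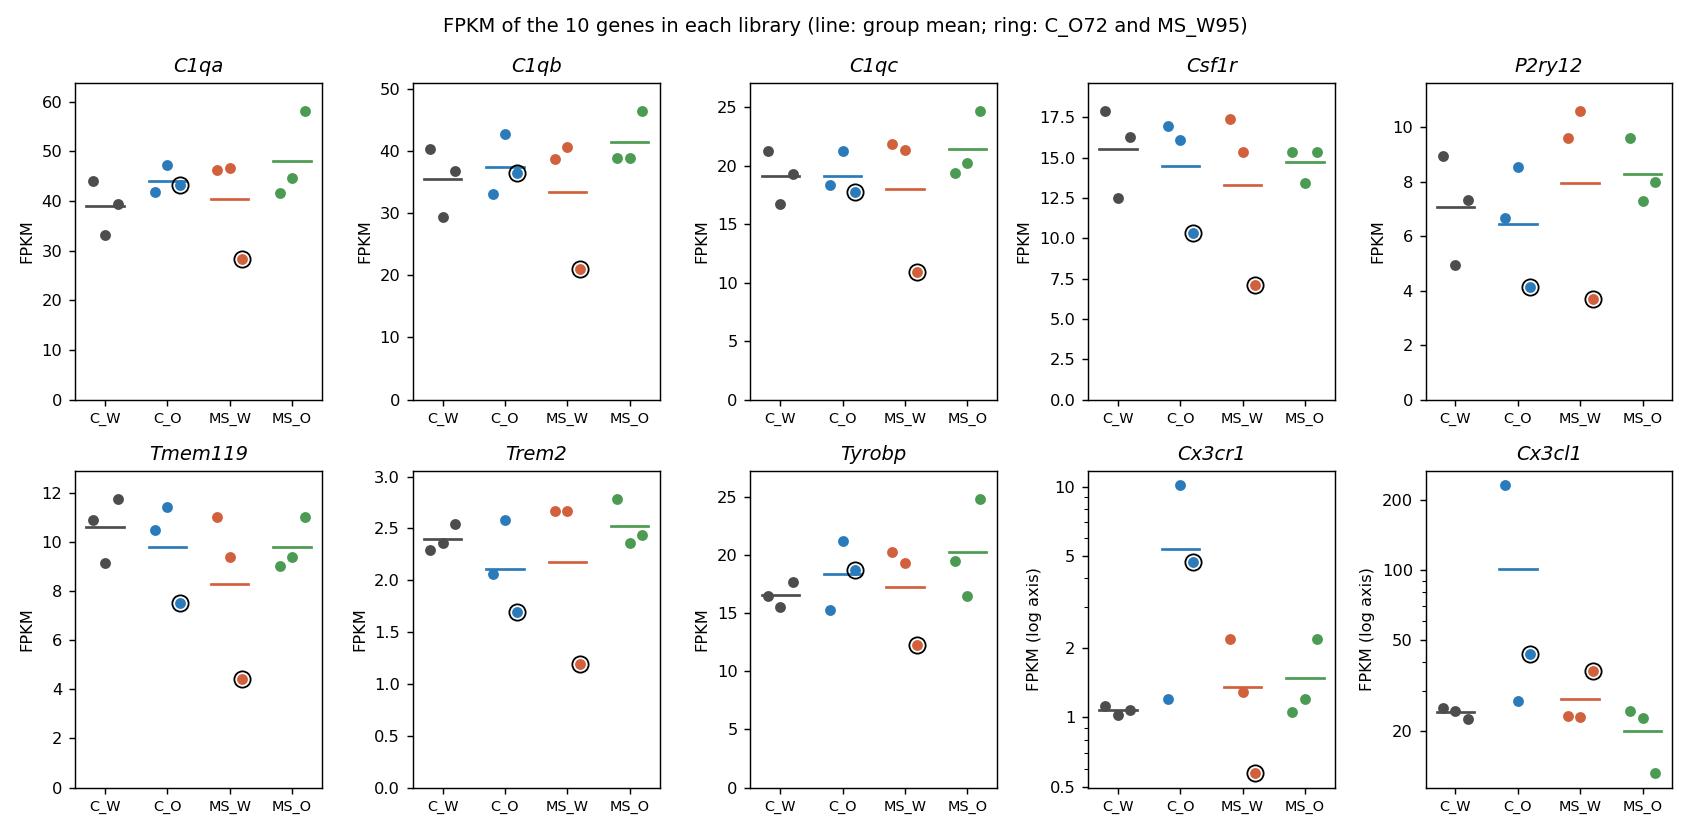
FPKM of the 10 genes in each of the 12 libraries, by group; points are single mice, lines are group means of 3 mice, and rings mark C_O72 and MS_W95. The axes of Cx3cr1 and Cx3cl1 are logarithmic, and the other axes are linear and start at 0. Cx3cl1 at 233.5 FPKM in C_O15 and Cx3cr1 at 10.17 FPKM in C_O30 lie far above the other libraries, and the ringed MS_W95 point is the lowest of 12 for every gene but Cx3cl1.

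Cx3cl1, the gene of fractalkine, was annotated at 94772009 to 94782427 on the plus strand of chromosome 8 (mm10) with 6 transcripts. Its FPKM was 25.35, 24.45 and 22.72 in C_W1, C_W64 and C_W70, and 233.5, 27.03 and 43.30 in C_O15, C_O30 and C_O72. Under CUMS it was 23.29, 23.11 and 36.56 in MS_W31, MS_W75 and MS_W95, and 24.56, 22.80 and 13.19 in MS_O13, MS_O46 and MS_O78. Each C_O mouse was above each C_W and MS_O mouse, but C_O30 was close to the highest C_W mouse, and C_O15 carried most of the group mean of 101.3 ± 114.8 (SD, n = 3). The means of the other groups were 24.17 ± 1.34 in C_W, 27.65 ± 7.72 in MS_W and 20.19 ± 6.12 in MS_O (SD, n = 3 each). The order of the groups was C_O, MS_W, C_W and MS_O, and neighbours in this order overlapped.

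The value in C_O15 was 5.39 times that of the next highest library, C_O72, and the estimated count was 72779 against 3356 to 9996 in the other 11 libraries. Of 5955 genes whose highest library had at least 10 FPKM, 17 had a highest library at least 5 times the second highest. Of these 17 genes, 1 had its highest value in C_O15, and that gene was Cx3cl1. The limits of 10 FPKM and 5 times were chosen after the value of Cx3cl1 was seen. Apart from C_O15, the 2 highest Cx3cl1 values were those of C_O72 and MS_W95, the libraries low in cortex markers, and the part of that difference in tissue was not tested.

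Cx3cr1, the gene of the fractalkine receptor, had 1.12, 1.02 and 1.07 FPKM in C_W1, C_W64 and C_W70, and 1.20, 10.17 and 4.69 FPKM in C_O15, C_O30 and C_O72. In the CUMS groups it had 2.18, 1.29 and 0.573 FPKM in MS_W31, MS_W75 and MS_W95, and 1.06, 1.20 and 2.19 FPKM in MS_O13, MS_O46 and MS_O78. Only C_O30 and C_O72 exceeded 2.19 FPKM, and C_O15, the mouse with the most Cx3cl1, had a Cx3cr1 value within the range of the MS_O mice. The group means were 5.35 ± 4.52 in C_O, 1.48 ± 0.615 in MS_O, 1.35 ± 0.807 in MS_W and 1.07 ± 0.050 in C_W (SD, n = 3 each), with overlap between neighbours in this order.

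The receptor did not move with the other microglia genes in C_O30 and C_O72. The ratio of Cx3cr1 to P2ry12, both defining microglia genes, was 1.19 in C_O30 and 1.14 in C_O72. It was between 0.110 and 0.274 in the other 10 libraries, with 0.179 in C_O15. In C_O30 the 8 core genes lay at 1.11 to 1.21 times the mean of the other 11 libraries, and Cx3cr1 at 6.36 times. In C_O72 the core genes lay at 0.534 to 1.03 times, and Cx3cr1 at 2.24 times. The ratio of ligand to receptor, Cx3cl1 to Cx3cr1, had a median of 20.1 over the 12 libraries and was 195.1 in C_O15, 2.66 in C_O30 and 9.23 in C_O72. These ratios were chosen after the values were seen and carry no test.

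**Figure D2:**
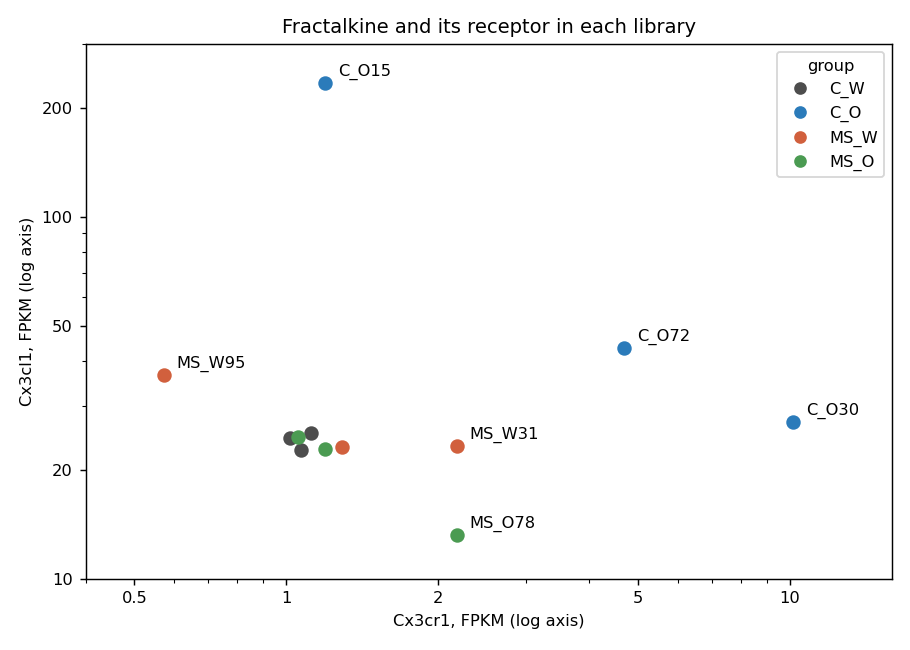
Cx3cr1 FPKM (horizontal, log axis) against Cx3cl1 FPKM (vertical, log axis) in the 12 libraries, each point 1 mouse and each color a group. The 3 C_O mice lie apart from each other, with C_O15 at 233.5 FPKM of Cx3cl1 and 1.20 FPKM of Cx3cr1, and C_O30 at 27.03 and 10.17 FPKM.

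In C_O against C_W, which compares krill oil with water in unstressed mice, the log2FC was 1.40 (SE 0.62) for Cx3cl1 with an unadjusted p of 0.0467 and an adjusted p of 0.908 by limma. For Cx3cr1 the log2FC was 1.33 (SE 0.48), with an unadjusted p of 0.0201 and an adjusted p of 0.908. Over the alternatives, the adjusted p of limma, edgeR or DESeq2 ranged from 0.182 to 1.0 for Cx3cl1 and from 0.104 to 1.0 for Cx3cr1. The 2 genes were the members that met the DEG criteria of the study (an unadjusted p under 0.05 and a log2 ratio of mean FPKM beyond 1 in either direction), which 1.76% of the tested genes met. The p used for these criteria throughout is that of the limma fit of the 4 groups, where the study used Ballgown, so the calls need not be those of the study. They were also the members whose groups did not overlap, as for 9.42% of the tested genes.

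These differences rested on few mice. Without C_O15, the log2FC of Cx3cl1 in C_O against C_W was 0.49 (SE 0.30, limma adjusted p = 0.637), and that of Cx3cr1 was 1.95 (SE 0.34, adjusted p = 0.285). Without C_O30, the log2FC of Cx3cr1 was 0.77 (SE 0.40, limma adjusted p = 0.71), and that of Cx3cl1 was 2.02 (SE 0.57, adjusted p = 0.71). Without C_O72, the log2FC of Cx3cr1 was 1.26 (SE 0.56, limma adjusted p = 1.0) with an unadjusted p of 0.0514, so that it no longer met the DEG criteria, and that of Cx3cl1 was 1.69 (SE 0.70, limma adjusted p = 1.0). When only C_O and C_W were fitted, the unadjusted p by limma was 0.112 for Cx3cl1 and 0.0538 for Cx3cr1. C_O15 thus carried most of the Cx3cl1 difference. For Cx3cr1, C_O30 had the largest part, but C_O72 at 4.69 FPKM also lay well above the C_W mice at 1.02 to 1.12 FPKM. C_O72 is a library low in cortex markers and high in hindbrain markers, and their part in its Cx3cr1 value was not tested.

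In MS_O against C_O, which compares stressed with unstressed mice on krill oil, the log2FC was -1.69 (SE 0.62) for Cx3cl1 with an unadjusted p of 0.0205 and an adjusted p of 0.5 by limma. For Cx3cr1 it was -1.09 (SE 0.48), with an unadjusted p of 0.0463 and an adjusted p of 0.56. Both met the DEG criteria, met by 3.57% of the tested genes, while the groups did not overlap for Cx3cl1 alone among the 10 genes, against 12.2% of the tested genes. Over the alternatives the adjusted p ranged from 0.0284 to 0.957 for Cx3cl1 and from 0.14 to 0.957 for Cx3cr1. The lowest, 0.0284, was from DESeq2, where edgeR gave 0.555. Without C_O15 the log2FC of Cx3cl1 was -0.78 (SE 0.30, limma adjusted p = 0.579), and without C_O30 that of Cx3cr1 was -0.54 (SE 0.40, limma adjusted p = 0.604). Without C_O72 that of Cx3cr1 was -1.03 (SE 0.56, limma adjusted p = 0.599) with an unadjusted p of 0.101. When only MS_O and C_O were fitted, the unadjusted p by limma was 0.068 for Cx3cl1 and 0.101 for Cx3cr1.

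By limma with all 12 libraries, neither gene had an unadjusted p under 0.05 in the remaining comparisons. In MS_W against C_W, the log2FC was 0.16 (SE 0.62, limma adjusted p = 0.931) for Cx3cl1 and 0.12 (SE 0.48, adjusted p = 0.931) for Cx3cr1. In MS_O against MS_W, it was -0.45 (SE 0.62, limma adjusted p = 0.898) for Cx3cl1 and 0.11 (SE 0.48, adjusted p = 0.971) for Cx3cr1. The interaction, the effect of CUMS on krill oil less its effect on water, was -1.85 (SE 0.88) for Cx3cl1 with an unadjusted p of 0.0602 and an adjusted p of 0.665 by limma, and -1.22 (SE 0.68) for Cx3cr1 with an unadjusted p of 0.104 and an adjusted p of 0.665. The unadjusted p of the interaction fell below 0.05 by edgeR (0.0221 for Cx3cl1 and 0.0431 for Cx3cr1), by DESeq2 (0.00536 and 0.0182) and by limma without C_O15 (0.0426 and 0.00296). The adjusted p ranged from 0.213 to 0.889 for Cx3cl1 and from 0.318 to 0.925 for Cx3cr1 over the limma, edgeR and DESeq2 alternatives.

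**Figure D3:**
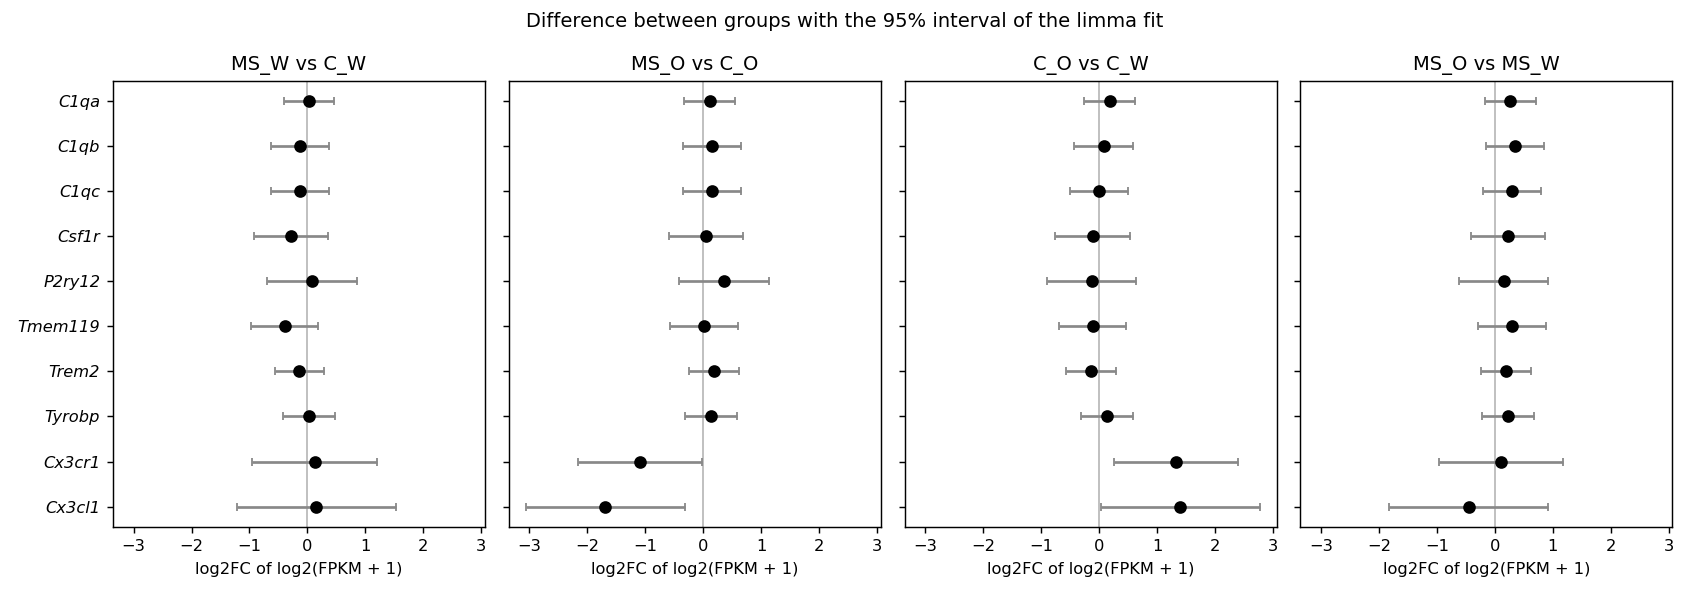
Difference between groups for each gene in the 4 pairwise comparisons, as the log2FC of log2(FPKM + 1) on the horizontal axis with the 95% interval of the limma fit (3 mice per group). Intervals that leave out 0 are those of Cx3cl1 and Cx3cr1 in MS_O against C_O and in C_O against C_W, before adjustment, and the intervals of the 8 core genes include 0 throughout.

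The annotation bears on what the Cx3cr1 value counts. The table placed the gene at 119901616 to 120068296 on the minus strand of chromosome 9, a span of 166681 bases against 19614 bases in RefSeq on the same assembly. The long span came from transcript ENSMUST00000177637, whose last exon holds 12 bases at chr9:119901616-119901627, 147651 bases from the exon before it. The last 30 bases of this transcript, read from GENCODE M21, are shown because they carry that exon, with its 12 bases in capitals:
Cx3cr1 last exon: aaagaaaaagaaaggaagGAAGGAAGGAAG
The last exon continues a repeat of the exon before it. The span overlaps 8 other annotated genes, 5 of them protein coding (Wdr48, Gorasp1, Ttc21a, Csrnp1 and Xirp1). In C_O30, where Cx3cr1 was highest, Wdr48 had 9.90 FPKM against 6.15 to 10.8 FPKM in the other libraries, and Gorasp1 had 9.29 FPKM against 8.43 to 10.4 FPKM. Ttc21a had 0.129 FPKM, Csrnp1 2.81 FPKM and Xirp1 0.00957 FPKM in C_O30, all within the range of the other libraries. In C_O72, where Cx3cr1 was next highest, Wdr48 had 6.15 FPKM, the lowest of the 12 libraries. Ttc21a had 0.705 FPKM there, exceeded only by MS_W95 at 0.759 FPKM. Gorasp1 at 8.82 FPKM, Csrnp1 at 3.875 FPKM and Xirp1 at 0.0211 FPKM in C_O72 lay within the range of the other libraries.

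The division of counts by length also bears on levels between genes. For each of the 10 genes, the estimated count over the FPKM gave a length that lay within 17 bases of the union of all annotated exons in each library. For C1qa this was 1040 bases, the length of its single transcript. For Trem2 it was 4950 to 4963 bases, although its full coding transcripts have 1088 and 1056 bases, and a transcript of 4784 bases sets the union. The FPKM of Trem2 is thus divided by a length above that of its coding transcripts, which lowers its level beside other genes. Ratios of its FPKM between libraries keep their size, but a log2FC of log2(FPKM + 1) is smaller at a lower FPKM. In MS_W against C_W, the log2FC of Trem2 was -0.14 on this scale and -0.23 with a pseudocount of 0.01. C1qc was likewise divided by 1931 to 1932 bases where its longest transcript has 1203, and Csf1r by 5773 to 5777 where its longest has 4701.

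The complement genes C1qa, C1qb and C1qc encode the 3 chains of C1q, the recognition protein of the classical complement pathway, which tags synapses for removal by microglia. They lie on the minus strand of chromosome 4 within 18675 bases, with C1qb at 136880129 to 136886187, C1qc at 136889804 to 136893065 and C1qa at 136895917 to 136898803. C1qa had the highest FPKM of the core genes in each of the 12 libraries. It had 43.98, 33.24 and 39.49 FPKM in C_W1, C_W64 and C_W70, and 41.71, 47.26 and 43.16 FPKM in C_O15, C_O30 and C_O72. It had 46.27, 46.63 and 28.40 FPKM in MS_W31, MS_W75 and MS_W95, and 41.70, 44.63 and 58.03 FPKM in MS_O13, MS_O46 and MS_O78. MS_O78 was the highest and MS_W95 the lowest, and all groups overlapped.

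C1qb ranged from 21.08 FPKM in MS_W95 to 46.32 FPKM in MS_O78, and C1qc from 10.91 FPKM in MS_W95 to 24.65 FPKM in MS_O78. The group means of C1qb were 35.51 ± 5.56 for C_W, 37.39 ± 4.85 for C_O, 33.44 ± 10.8 for MS_W and 41.35 ± 4.31 for MS_O (SD, n = 3 each). Those of C1qc were 19.12 ± 2.26, 19.16 ± 1.88, 18.05 ± 6.19 and 21.43 ± 2.83 FPKM in the same order (SD, n = 3 each).

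The 3 chains kept nearly fixed proportions while their levels varied. The ratio of C1qb to C1qc lay between 1.75 and 2.05 in the 12 libraries, with a coefficient of variation (CV) of 4.87%, and the ratio of C1qa to C1qb between 1.07 and 1.35, with a CV of 7.26%. The CV of the levels themselves was 17.2% for C1qa, 17.9% for C1qb and 17.6% for C1qc. The ratio of C1qa to C1qc was 1.98 to 2.60, with a CV of 7.90%, and it was highest in MS_W95 and next highest in C_O72 at 2.42. The size of the ratios to C1qc also holds the long length by which C1qc is divided, so it is not the proportion of the transcripts. The ratios are those of single libraries, which share depth and composition, and were chosen after the values were seen.

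**Figure D4:**
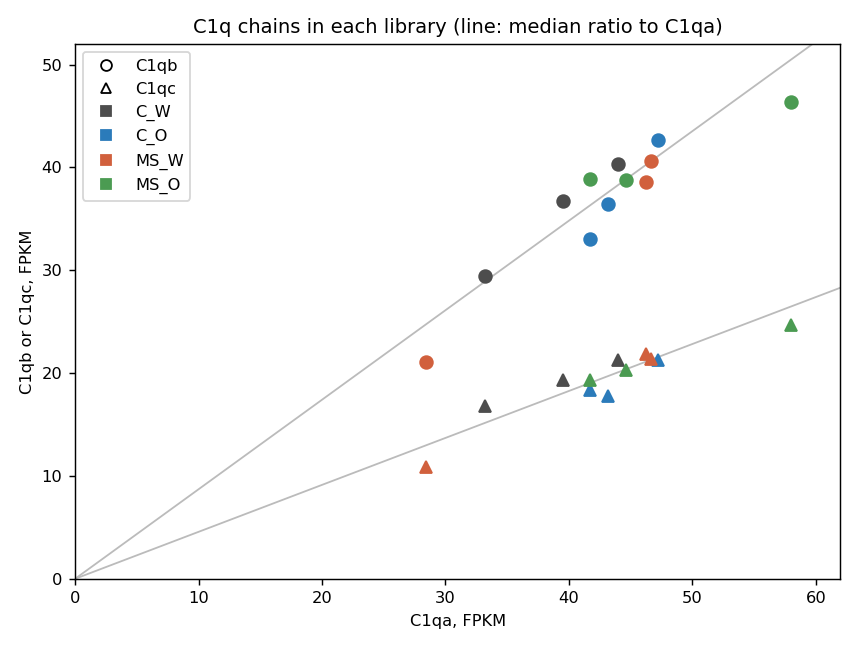
FPKM of C1qa (horizontal) against C1qb (circles) and C1qc (triangles) in the 12 libraries, colored by group; gray lines through 0 have the median ratio of each chain to C1qa. Libraries spread along the lines, from MS_W95 at 28.40 FPKM of C1qa to MS_O78 at 58.03 FPKM, with no separation of the groups.

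Since the C1q genes varied together, the promoters of the members in RefSeq (250 bases before to 50 after the start, GRCm38.p6) were scanned. A promoter was given for 6 of the 10 genes (C1qb, C1qc, Cx3cl1, Cx3cr1, P2ry12 and Trem2). A total of 9 motifs was searched on both strands, many of them overlapping, and AGGAAGT, a core of sites bound by ETS factors such as the myeloid factor PU.1, was chosen to be shown after the matches were seen. It was found in 3 of the 6 promoters and in 9.35% of all 32851 promoters of the table. The longer GAGGAAGT was in 1 of the 6 (C1qc) and in 3.2% of all, and GAGGAAG in 3 of the 6 (C1qc, Cx3cl1 and Trem2) and in 13.6%. GGAAGT, which AGGAAGT contains, was in the same 3 promoters as AGGAAGT and in 23.8% of all, and CACGTG was in 1 of the 6 and in 7.15%. TATAAA was in 1 of the 6 and in 13.6% of all, GGGCGG in 2 of the 6 and in 35.7%, and TGACTCA and GGGGCGGGG in 0 of the 6, against 5.2% and 11.4% of all. A match is a run of letters, and binding was not measured. The 30 bases around the 3 matches are shown 5′ to 3′ on the strand of the gene, with AGGAAGT or its reverse complement in capitals, for chr3:59263019-59263048, chr4:136886235-136886264 and chr4:136893091-136893120, all for genes on the minus strand:
P2ry12: agctaacaagaAGGAAGTtccccagtgaca
C1qb: caggacctgaaACTTCCTgagggcagcagg
C1qc: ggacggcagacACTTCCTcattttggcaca
The match lay 52 to 46 bases before the start in P2ry12 and 53 to 47 bases before it in C1qb, on opposite strands, and 195 to 189 bases before it in C1qc. The starts are those of the RefSeq promoter table, at 59262985 for P2ry12, 136886200 for C1qb and 136892914 for C1qc. They differ from the gene ends of the expression table, which places the start of C1qc at 136893065, nearer to the match.

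Csf1r, the receptor for the growth factors CSF1 and IL-34, had 17.87, 12.51 and 16.29 FPKM in C_W1, C_W64 and C_W70, and 16.96, 16.12 and 10.33 FPKM in C_O15, C_O30 and C_O72. In the CUMS groups it had 17.39, 15.34 and 7.13 FPKM in MS_W31, MS_W75 and MS_W95, and 15.38, 13.45 and 15.35 FPKM in MS_O13, MS_O46 and MS_O78. The lowest were MS_W95 and C_O72, and the others overlapped. Its ligand Il34, made by neurons, showed the same 2 libraries apart, with 5.40 FPKM in MS_W95 and 8.16 FPKM in C_O72 against 21.4 to 32.0 FPKM in the other 10. Cortex markers moved with Il34 in these libraries, and their part in it was not tested. The second ligand, Csf1, ranged from 2.80 FPKM in MS_W31 to 5.31 FPKM in C_O72. Neither ligand passed an adjusted p in any comparison by limma, and Csf1 had a log2FC of 0.32 in C_O against C_W (SE 0.14, limma adjusted p = 0.908) with an unadjusted p of 0.0479.

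P2ry12 encodes the receptor for ADP that directs microglial processes, and is held to mark microglia at rest. Its FPKM was 8.94, 4.92 and 7.32 in C_W1, C_W64 and C_W70, 6.67, 8.52 and 4.13 in C_O15, C_O30 and C_O72, 9.61, 10.57 and 3.68 in MS_W31, MS_W75 and MS_W95, and 9.59, 7.27 and 7.99 in MS_O13, MS_O46 and MS_O78. MS_W75 and MS_W31 were the highest of the 12 mice, while MS_W95 of the same group was the lowest. The spread of P2ry12 over the 12 libraries, a CV of 30.0%, was the widest of the core genes. In the 10 libraries without C_O72 and MS_W95, the log2FC of P2ry12 in MS_W against C_W was 0.49 with an unadjusted p of 0.0479 and an adjusted p of 0.32 by limma, against 0.08 (SE 0.35, adjusted p = 0.941) with all libraries. MS_W31 and MS_W75, the MS_W mice left in that fit, were also low in cortex markers beside the C_W mice.

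Tmem119 encodes a membrane protein used as a microglia marker. Its group means were 10.58 ± 1.33 for C_W, 9.80 ± 2.03 for C_O, 8.27 ± 3.43 for MS_W and 9.80 ± 1.05 FPKM for MS_O (SD, n = 3 each). It had the largest difference of the core genes in MS_W against C_W, at a log2FC of -0.39 (SE 0.26, limma adjusted p = 0.595). This difference was -0.05 without MS_W95 and -0.62 without MS_W31, where limma gave an unadjusted p of 0.042 and an adjusted p of 0.472. It stayed negative whichever single library was left out.

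Trem2 ranged from 1.19 FPKM in MS_W95 and 1.69 FPKM in C_O72 to 2.78 FPKM in MS_O13, and Tyrobp from 12.27 FPKM in MS_W95 to 24.77 FPKM in MS_O78. The ratio of adaptor to receptor, Tyrobp to Trem2, was 6.58 to 8.20 in 9 libraries and 10.2, 10.3 and 11.0 in MS_O78, MS_W95 and C_O72. The 3 libraries with the higher ratio came from 3 groups, so the ratio did not follow the design. TYROBP also serves other receptors than TREM2.

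Across comparisons, the 8 core genes gave small log2FC. Their signs were mixed in MS_W against C_W and in C_O against C_W. All 8 were positive in MS_O against C_O, in MS_O against MS_W and in the interaction. The medians below are descriptions of these genes beside the medians over all tested genes. In MS_W against C_W, the log2FC ranged from -0.39 (Tmem119) to 0.08 (P2ry12) with a median of -0.13, where the median of all genes was 0.06. Of the 8 genes, 3 had a positive value, and under quantile normalization, median centring, edgeR and DESeq2 this count was 1, 0, 1 and 1. In MS_O against C_O, the range was 0.01 (Tmem119) to 0.36 (P2ry12, SE 0.35, limma adjusted p = 0.774), the median was 0.14, and that of all genes was 0.03. The 8 positive values became 7 under quantile normalization and 6 under median centring, edgeR and DESeq2. In C_O against C_W, the range was -0.14 (Trem2) to 0.18 (C1qa, SE 0.20, limma adjusted p = 0.908), and the median was -0.05. In MS_O against MS_W, the range was 0.15 (P2ry12) to 0.35 (C1qb, SE 0.23, limma adjusted p = 0.837), and the median was 0.25, where that of all genes was -0.02. The interaction ranged from 0.08 (C1qa) to 0.41 (Tmem119, SE 0.37, limma adjusted p = 0.726), with a median of 0.28. In MS_O against MS_W and in the interaction, all 8 values stayed positive under quantile normalization, median centring, edgeR and DESeq2, but not without MS_W95.

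These intervals still allow sizeable differences. The 95% intervals of the 8 core genes reached from -0.98 to 0.85 in MS_W against C_W, from -0.59 to 1.13 in MS_O against C_O, from -0.90 to 0.64 in C_O against C_W and from -0.62 to 0.92 in MS_O against MS_W. In MS_W against C_W, 4.59% of the tested genes met the DEG criteria and 24.6% had groups that did not overlap, and none of the 10 members did either by limma. In MS_O against MS_W the shares were 2.81% and 12.3%, again with none of the 10 members. The counts at an unadjusted p under 0.05 are given above.

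The direction of the medians in MS_W against C_W, in MS_O against MS_W and in the interaction rested on MS_W95. Without it, the core median was 0.17 in MS_W against C_W, with 7 of the 8 genes higher in MS_W, and -0.04 in MS_O against MS_W, with 3 of the 8 higher in MS_O. The interaction median was then -0.03, and -0.10 when C_O72 was also left out. The core medians of MS_O against C_O (0.14) and C_O against C_W (-0.05), which hold no MS_W mouse, were the same without MS_W95. Without C_O72 the core median in C_O against C_W was 0.09, against -0.05 with it.

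In MS_W95 the 8 core genes lay at 0.439 (Tmem119) to 0.658 (Tyrobp) times the mean of the other 11 libraries. The 20 other homeostatic microglia genes, a list that includes P2ry13 and Ctss, summed to 108.3 FPKM in MS_W95 and 136.8 FPKM in C_O72, against 145.3 to 188.0 FPKM in the other 10. Markers of border macrophages and blood myeloid cells, such as Mrc1 and S100a8, were highest in MS_W95, with a sum of 22.6 FPKM against 3.53 to 14.3 FPKM elsewhere. Cortex, hindbrain and blood markers also stood apart in this library, and their part in the low microglia values was not tested.

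**Figure D5:**
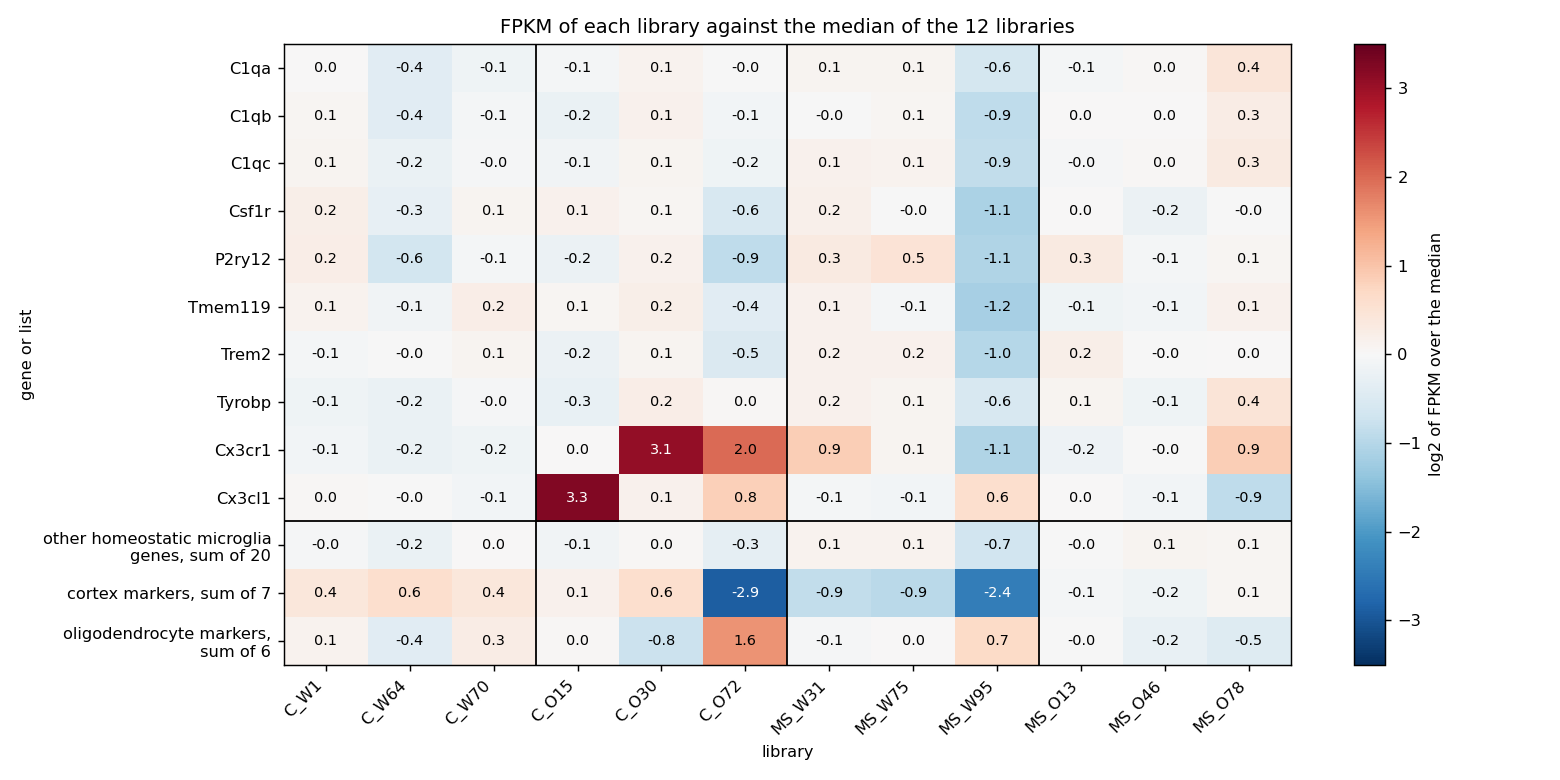
FPKM of each gene, and summed FPKM of 3 gene lists, in each library (horizontal) as the log2 ratio to the median of the 12 libraries; red is above and blue below the median, and vertical lines separate the groups. MS_W95 is below the median for every gene but Cx3cl1, C_O15 and C_O30 hold the highest values of Cx3cl1 and Cx3cr1, and the cortex marker sum is lowest in C_O72 and MS_W95.

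The partner genes of the same pathways were read from lists of related genes. Fractalkine is cut from the cell surface by ADAM10 and ADAM17 and by cathepsin S (Ctss), and 0 of these 3 genes had an unadjusted p under 0.05 in any of the 5 comparisons by limma. Adam10 ranged from 10.4 to 14.1 FPKM, Adam17 from 1.58 to 2.71 FPKM and Ctss from 33.6 to 47.1 FPKM over the 12 libraries. In C_O15, the library with the most Cx3cl1, they had 11.5, 1.87 and 38.4 FPKM, within these ranges. Of 10 other chemokine ligands and receptors tested, 0 passed an adjusted p by limma, and 1 met the DEG criteria, Cxcr4, the receptor of CXCL12, in MS_O against C_O at log2FC 0.67 (SE 0.25, adjusted p = 0.501). In that comparison 3.57% of all tested genes met the criteria. The most abundant of that list were Cxcl14 at 30.1 to 63.6 FPKM and Ackr1, an atypical chemokine receptor, at 20.5 to 49.5 FPKM. Ackr1 had 21.5 to 21.9 FPKM in the C_W mice and 31.5 to 49.5 FPKM in the MS_W mice. The groups did not overlap, as for 24.6% of the tested genes. The log2FC of Ackr1 was 0.75 (SE 0.23, limma adjusted p = 0.326, from 0.149 to 0.688 over the alternatives) with an unadjusted p of 0.00793.

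Of the 20 other homeostatic microglia genes, 1 had an unadjusted p under 0.05 in MS_W against C_W, 1 in MS_O against C_O and 1 in the interaction. The count was 0 in both other pairwise comparisons, and none passed an adjusted p by limma. Of all tested genes, 10.5% reached that unadjusted level in MS_W against C_W, 8.88% in MS_O against C_O and 7.23% in the interaction. The listed gene in MS_O against C_O was Sall1, a transcription factor of microglial identity that neural progenitors and other brain cells also use. Sall1 had 3.68, 5.92 and 3.99 FPKM in C_O15, C_O30 and C_O72 and 6.16, 25.7 and 22.1 FPKM in MS_O13, MS_O46 and MS_O78. The groups did not overlap, as for 12.2% of the tested genes. The log2FC of Sall1 was 1.59 (SE 0.54, limma adjusted p = 0.479, from 0.0751 to 0.957 over the alternatives). The 8 core genes differed by at most 0.36 in the same comparison.

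Of 15 tested myeloid signalling genes and transcription factors, none passed an adjusted p by limma in any comparison. In C_O against C_W and in MS_O against MS_W, 0 had an unadjusted p under 0.05, against 3.55% and 6.09% of all tested genes. The most abundant that are described here were Mef2a, a transcription factor, at 4.03 to 10.1 FPKM, and Fcer1g, a signalling adaptor, at 4.32 to 9.69 FPKM. Mef2a was lowest in C_O72 and Fcer1g in MS_W95. Mef2a had a log2FC of 0.54 in MS_O against C_O (SE 0.19, limma adjusted p = 0.479) with an unadjusted p of 0.0159. These groups did not overlap, as for 12.2% of the tested genes.

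Of 14 tested genes of the classical complement pathway and its regulators, 2 met the DEG criteria in MS_W against C_W, against 4.59% of all tested genes. None of the 14 passed an adjusted p by limma in any comparison. The 2 genes were C1ra and C1s1, which encode the proteases that bind to C1q and start the cascade. C1ra had 1.33, 0.889 and 1.08 FPKM in C_W1, C_W64 and C_W70 and 0.30, 0.251 and 0.385 FPKM in MS_W31, MS_W75 and MS_W95. Its log2FC was -0.67 (SE 0.25, limma adjusted p = 0.401), and that of C1s1 was -0.26 (SE 0.10, limma adjusted p = 0.413) at levels of 0.111 to 0.527 FPKM in these 6 mice. The C1q chains had log2FC of 0.03, -0.13 and -0.13 in the same comparison. The inhibitor Serping1 had 12.2 FPKM in C_O72 and 7.46 FPKM in MS_W95 against 1.74 to 5.13 FPKM elsewhere, and Cd59a had 18.7 FPKM in C_O72 against 1.38 to 3.53 FPKM.

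Of 9 purinergic partners of P2ry12, P2ry1 met the DEG criteria in MS_W against C_W and in MS_O against MS_W, and Nt5e in MS_O against C_O. The shares of all tested genes were 4.59% in MS_W against C_W, 2.81% in MS_O against MS_W and 3.57% in MS_O against C_O. P2ry1, another receptor for ADP, had 0.423, 0.469 and 0.386 FPKM in C_W1, C_W64 and C_W70 and 2.05, 2.07 and 1.97 FPKM in MS_W31, MS_W75 and MS_W95. It had 0.20, 0.800 and 2.15 FPKM in C_O15, C_O30 and C_O72 and 0.429, 0.646 and 0.603 FPKM in MS_O13, MS_O46 and MS_O78. The MS_W mice lay above all C_W and MS_O mice, and C_O72 was as high as they were. Of all tested genes, 24.6% in MS_W against C_W and 12.3% in MS_O against MS_W had groups that did not overlap. The log2FC of P2ry1 was 1.09 (SE 0.26, limma adjusted p = 0.267, from 0.0143 to 0.616 over the alternatives) in MS_W against C_W. It was -0.96 (SE 0.26, limma adjusted p = 0.664, from 0.0367 to 0.98) in MS_O against MS_W. The interaction of P2ry1 was -1.37 (SE 0.37) with an unadjusted p of 0.00403 and an adjusted p of 0.631 by limma. Over the limma, edgeR and DESeq2 alternatives, this adjusted p ranged from 0.0308 to 0.843. Nt5e, which makes adenosine outside the cell, had a log2FC of 0.72 (SE 0.28, limma adjusted p = 0.504) in MS_O against C_O. The adenosine receptor gene Adora2a ranged from 0.461 FPKM in MS_W95 to 33.1 FPKM in MS_W75, and P2ry13 from 2.23 FPKM in MS_W95 to 5.69 FPKM in MS_O46.

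Genes raised in activated microglia and inflammatory mediators were mostly at low levels. Of 16 tested genes of the first list, Gpnmb and Ccl3 met the DEG criteria in MS_O against C_O, and Gpnmb also in MS_O against MS_W. The shares of all tested genes were 3.57% and 2.81%. Gpnmb, a lysosomal glycoprotein, had 0.353, 0.485 and 0.439 FPKM in C_O15, C_O30 and C_O72 and 0.625, 2.22 and 1.85 FPKM in MS_O13, MS_O46 and MS_O78, and its log2FC was 0.79 (SE 0.24, limma adjusted p = 0.479, from 0.0368 to 0.957 over the alternatives). Ccl3 was at most 0.521 FPKM and was listed at 0.0001 FPKM, without signal, in C_W1 and C_O72. The abundant genes of the list, Apoe and Ctsd, ranged from 215.9 to 506.7 FPKM and from 146.0 to 260.9 FPKM, and both are also made in quantity by other brain cells. Apoe, the main lipid carrier of the brain, had 219.9, 215.9 and 302.1 FPKM in C_W1, C_W64 and C_W70 and 309.3 FPKM or more in each MS_W mouse. The groups did not overlap in MS_W against C_W, where the log2FC was 0.65 (SE 0.22, limma adjusted p = 0.361) with an unadjusted p of 0.0148. They did not overlap in C_O against C_W either, where the log2FC was 0.66 (SE 0.22, limma adjusted p = 0.908) with an unadjusted p of 0.0136. Of all tested genes, 24.6% in MS_W against C_W and 9.42% in C_O against C_W had groups that did not overlap.

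Of 11 tested inflammatory mediators, Il1a met the DEG criteria in MS_W against C_W, and Cxcl10 in MS_O against C_O and MS_O against MS_W, all at levels below 0.64 FPKM. The shares of all tested genes were 4.59% in MS_W against C_W, 3.57% in MS_O against C_O and 2.81% in MS_O against MS_W. Il1a, a cytokine, had 0.177, 0.109 and 0.119 FPKM in C_W1, C_W64 and C_W70 and 0.554, 0.638 and 0.163 FPKM in MS_W31, MS_W75 and MS_W95. Its log2FC was 0.34 (SE 0.11, limma adjusted p = 0.357, from 0.013 to 0.713 over the alternatives), and 0.49 (adjusted p = 0.0258) without MS_W95, the library low in the core genes. MS_W95 also had the least Il1a of the MS_W mice, so leaving it out widens the difference. In that fit 58 of the tested genes passed an adjusted p of 0.05 in MS_W against C_W, against 1 with all libraries. Il18 at 8.06 to 12.3 FPKM and Cd14 at 0.824 to 2.18 FPKM were the most abundant of this list.

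The genes most like Cx3cl1 by the Pearson correlation of log2(FPKM + 1) over the 12 libraries, among the 13611 genes whose mean FPKM was 1 or more, were Actr1a, Golph3, Bri3bp, Eif2ak1 and Ldhd, with r from 0.77 to 0.85. The likeness of Actr1a rested on C_O15, where it had 52.5 FPKM against 32.1 to 37.7 FPKM elsewhere. Its r was 0.85 and its Spearman rho 0.23, and r was 0.22 without C_O15 and MS_O78. The 10 genes most like the mean profile of the other 9 members, with r from 0.91 to 0.97, included Fzd2, Tubb5, Gpc4, Laptm5, Rogdi, Mest, Rasl10b, Cxcl14 and Fam43b. Laptm5, a lysosomal protein of blood and microglial cells, is the gene among them best known from microglia (r = 0.94, and 0.85 without C_W64 and MS_W95). These correlations are descriptions over 12 libraries that share their depth and tissue differences, and all 10 genes had their lowest value in MS_W95.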

How the data were processed

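Whole brain poly(A) RNA of 12 mice was sequenced by the authors from strand-specific libraries. Per the labels, the submitters' processing notes name cutadapt 1.9, HISAT2 2.0.4, StringTie 1.3.4d, edgeR and DESeq2 and the build mm10, and the methods name Ballgown for expression. The FPKM values were deposited by the authors, with 0.0001 where a gene had no signal. The estimated count values deposited by the authors equal FPKM times the union exon length of a gene times a factor per library, and are not counts of single reads. Handling of reads with several alignments is not given in the sources used here.

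Groups followed the sample titles. The functions lmFit and eBayes (trended) of limma 3.58.1, run in R 4.3.3, were applied to log2(FPKM + 1) of the 21393 genes whose mean FPKM reached 0.1, with the 4 groups in 1 fit and Benjamini-Hochberg adjustment over all of them, and was tested on simulated data. Coordinates are those of the table, with transcripts from GENCODE M21 and promoters from RefSeq on GRCm38. The table, whose summed estimated counts had a median of 59331216 per library, gave no read counts from which intervals could be made. Alternatives used a pseudocount of 0.1 or 0.01, all genes or those whose mean FPKM reached 1, quantile normalization, median centring, or only the groups compared. Others fitted the estimated counts by edgeR 4.0.16 or DESeq2 1.42.0, left out C_O72 and MS_W95 together (10 libraries), or left out each library in turn. Genes other than the members are named where they met the DEG criteria, where they were among the 2 most abundant of a list, or as ligands and sheddases (at most 6 per list). The values of some genes that this rule names are not reported here. The members and the lists were chosen with earlier results of these data known. The core genes, the ratios, the motif shown, the single-library limits and the Cx3cr1 exon and overlapping genes were chosen after the values were seen. Python 3.11.15 with pandas 2.3.3 wrote the tables, and matplotlib 3.10.9 drew the plots.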

Additional observations from a re-analysis of the deposited data

How the results depend on the processing

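With 3 mice per group the intervals are wide, and single libraries decide several values. The adjusted calls of the 10 genes were 0 in all 5 comparisons under each alternative other than DESeq2, which gave 1 in MS_O against C_O (Cx3cl1). DESeq2 called 168 of the 22169 genes it tested in that comparison. In the 10 libraries without C_O72 and MS_W95, the log2FC of Cx3cl1 in MS_W against C_W was -0.056, that of Cx3cr1 in MS_O against MS_W was -0.15, the interaction was -0.10 for Tmem119 and -0.16 for C1qa, the log2FC in MS_W against C_W was 0.17 for C1qc and 0.17 for C1qb, that of Tmem119 in MS_O against C_O was -0.15 and that of P2ry12 in MS_O against MS_W was -0.26, each of the opposite sign to that with all libraries. Leaving out 1 library at a time, the log2FC in MS_W against C_W ranged from -0.056 to 0.26 for Cx3cl1, from -0.13 to 0.38 for Cx3cr1, from -0.16 to 0.49 for P2ry12, from -0.089 to 0.26 for C1qa, from -0.29 to 0.17 for C1qb and from -0.30 to 0.17 for C1qc. Likewise that of Cx3cr1 in MS_O against MS_W ranged from -0.15 to 0.36, that of P2ry12 there from -0.26 to 0.39, that of Tmem119 in MS_O against C_O from -0.15 to 0.12, and the interaction of C1qa from -0.15 to 0.20. In C_O against C_W the range was 0.49 to 2.02 for Cx3cl1 and 0.77 to 1.95 for Cx3cr1. Signs near 0 also turned with the scaling. In MS_W against C_W, P2ry12 was at -0.0004 under quantile normalization and -0.011 under median centring, and C1qa at -0.059 under median centring, -0.034 by edgeR and -0.035 by DESeq2. In MS_O against C_O, Tmem119 was at -0.030 under quantile normalization, -0.068 under median centring, -0.065 by edgeR and -0.075 by DESeq2. Of the 50 log2FC of the 10 genes in the 5 comparisons, 24 changed sign in the 10 libraries without C_O72 and MS_W95, 17 without MS_W95, 5 under median centring, 5 by edgeR, 4 by DESeq2 and 3 under quantile normalization, and 0 under other pseudocounts or filters; the cause was not tested. Without each of the other libraries, 0 to 6 changed sign. No paired analysis was possible because the groups share no mouse numbers.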
